A study of Mus musculus with 6 samples.

Results

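The promoters of the cytosolic ribosomal protein genes were examined by ATAC-seq, which maps open chromatin by the insertion of a transposase, in regulatory T cells (Tregs) with and without the transcription factor CREB. The genes were taken from the GENCODE vM21 annotation of GRCm38 by their symbols: protein-coding genes on the autosomes and the X chromosome named Rpl or Rps with a number, plus Rplp0, Rplp1, Rplp2 and Rpsa, without the Rps6k kinases and the -ps pseudogenes. This gave 81 of 21755 protein-coding genes, 50 of the large and 31 of the small subunit. A peak was assigned to a gene when it lay within 1 kb of any of its start sites, and 115 of the 104845 joined regions of both groups met this rule. Of all joined regions, 23987 lay at a protein-coding start.

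Ribosomal proteins wrap the ribosomal RNAs of both subunits, and a cell needs them in near equal amounts. Their genes are housekeeping genes that are transcribed at high rates, many with introns that hold small nucleolar RNAs (snoRNAs). Their messages start with a run of pyrimidines, the terminal oligopyrimidine (TOP) tract, through which mTOR signaling controls their translation when T cells are activated.

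Cells were splenic Tregs of C57BL/6 mice aged 6 to 12 weeks, with 3 libraries per group by the labels. The controls, labeled WT, were CREBfl/fl mice, in which the CREB gene carries loxP sites but no Cre is present. The mice labeled KO were Foxp3creCREBfl/fl mice, in which a Cre driven with Foxp3, the lineage factor of Tregs, deletes CREB in Foxp3-expressing cells. The controls thus lacked the Foxp3cre allele as well as the deletion, and both groups carried the floxed alleles. The question of the design was how the loss of CREB alters accessible chromatin. One peak list per group was analyzed, so no value here has a replicate, no p-value is given, and all intervals cover counting error only. In pooled cells, altered chromatin per cell cannot be told apart from altered shares of cell types.

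The CREBfl/fl list held 100771 peaks and the Foxp3creCREBfl/fl list 94499, with a median summit pileup (overlapping sequenced tags) of 90 and 66. The genome-wide background was 8.44 and 5.09, a ratio of 1.66. A level is given here as the summit pileup over the genome background of its list. All 7 Treg markers searched (Foxp3, Il2ra, Ctla4, Ikzf2, Nrp1, Cd4 and Cd3e) had a peak at a start in both lists. So did 3 of 5 markers each of CD8 and NK cells, B cells and myeloid cells and 3 of 4 erythroid markers, whereas others, among them Cd8a, Ncr1, Cd79a, Csf1r, Lyz2 and Hba-a1, had none in either list. The part of other cells in the results was not tested. The promoter of Creb1, the targeted gene, had levels of 126 and 149, which says nothing about the deleted exons.

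CREB binds the cAMP response element (CRE), the palindrome TGACGTCA, so the promoters were searched for it on both strands. RefSeq promoter windows (GRCm38.p6, from 250 bases before to 50 after a start) were used for 61 of the 81 genes, in 73 windows. An intact CRE was found in 5 of these genes, Rps9, Rpl18, Rpl27a, Rpl13 and Rpl26. The stretches are shown because these are the promoters in which the palindrome itself is present, with the CRE in capitals, 5′ to 3′ on the strand of the gene.
Rps9, chr7:3703954-3704021, plus strand: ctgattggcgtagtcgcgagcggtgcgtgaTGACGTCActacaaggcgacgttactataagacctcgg
Rpl18, chr7:45717962-45718029, plus strand: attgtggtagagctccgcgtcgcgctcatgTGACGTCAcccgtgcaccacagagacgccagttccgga
Rpl27a, chr7:109519068-109519135, plus strand: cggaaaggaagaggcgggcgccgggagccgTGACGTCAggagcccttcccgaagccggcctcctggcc
Rpl13, chr8:123102296-123102363, plus strand: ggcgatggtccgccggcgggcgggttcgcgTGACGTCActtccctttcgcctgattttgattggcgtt
Rpl26, chr11:68901402-68901469, plus strand: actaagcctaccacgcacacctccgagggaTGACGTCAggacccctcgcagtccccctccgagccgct

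The first base of the CRE lay at position -57 from the RefSeq start in Rps9, at -79 in Rpl18, at -97 in Rpl27a, at -24 in Rpl13 and at -134 in Rpl26. All 5 lay upstream of the start and inside the accessible region of the gene. Counted from the CREBfl/fl summit, the center of the CRE lay at 23.5 bases in Rps9, 16.5 in Rpl13, -22.5 in Rpl26, -51.5 in Rpl27a and -93.5 in Rpl18, with negative values upstream. The palindromes of Rps9, Rpl13 and Rpl26 were thus nearest to the point of highest accessibility.

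The TOP tract is the feature for which this gene family is best known, and 6 starts are shown to make its form visible. Capitals mark the longest run of C or T that touches the 20 bases on either side of the RefSeq start, and each stretch runs from 40 bases before that start to 20 after it.
Rpl15, chr14:18270967-18271026, minus strand: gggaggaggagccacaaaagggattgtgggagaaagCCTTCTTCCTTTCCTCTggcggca
Rpl27a, chr7:109519155-109519214, plus strand: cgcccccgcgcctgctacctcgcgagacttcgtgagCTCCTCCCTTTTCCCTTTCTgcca
Rpl28, chr7:4792925-4792984, plus strand: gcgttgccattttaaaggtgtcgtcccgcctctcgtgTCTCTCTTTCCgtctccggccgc
Rps18, chr17:33955646-33955705, minus strand: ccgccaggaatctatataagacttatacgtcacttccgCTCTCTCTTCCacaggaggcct
Rps6, chr4:86857348-86857407, minus strand: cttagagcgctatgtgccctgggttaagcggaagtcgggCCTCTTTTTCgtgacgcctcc
Rps26, chr10:128626487-128626546, minus strand: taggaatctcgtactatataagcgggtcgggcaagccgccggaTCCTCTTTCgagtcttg

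The run was 17 bases long in Rpl15, 20 in Rpl27a, 11 in Rpl28 and Rps18, 10 in Rps6 and 9 in Rps26. It began at offset -4 in Rpl15 and Rpl27a, -3 in Rpl28, -2 in Rps18 and -1 in Rps6, counted from the start as 0, and at offset 3 in Rps26. These 6 are examples from a larger group that met the same rule, a run that begins within 4 bases of the annotated start. That was so in 12 of the 32 genes with a run of at least 8 bases. In 16 of the 32 the run covered the start, in 10 it lay wholly upstream of it and in 6 wholly downstream. Rps6 encodes the ribosomal protein that S6 kinases phosphorylate downstream of mTOR, and Rps26 and Rps18 encode further proteins of the small subunit.

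The promoters were open in nearly the whole family in both groups. In the CREBfl/fl list, 78 of 81 genes had a peak within 1 kb of a start, which is 96.3% (Wilson 95% interval 89.7 to 98.7), against 62.5% of all protein-coding genes. In the Foxp3creCREBfl/fl list the same count of 78 was open, against a background of 62%. The genes without a peak were Rpl3l, Rpl10l and Rpl39l in both lists. All of them are paralogs known for expression in few tissues, Rpl3l in striated muscle and Rpl10l and Rpl39l in the testis. The paralogs Rps27l and Rpl36al, which are expressed in many tissues, were open, with levels of 115 and 150 in the CREBfl/fl list and 131 and 171 in the Foxp3creCREBfl/fl list.

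Mitochondrial ribosomal protein genes, which build the separate ribosome of the mitochondria, were open in 78 of 78 cases in both lists, and proteasome subunit genes in 37 of 39. Psma8, a testis subunit, and Psmb11, the thymus-specific subunit, had no peak. Of 300 annotated -ps pseudogenes of ribosomal proteins, a comparison added later, with the data already known, 15 (5%, 3.05 to 8.08) had a CREBfl/fl peak and 12 (4%, 2.3 to 6.86) a Foxp3creCREBfl/fl peak within 1 kb of the annotated start.

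**Figure D1:**
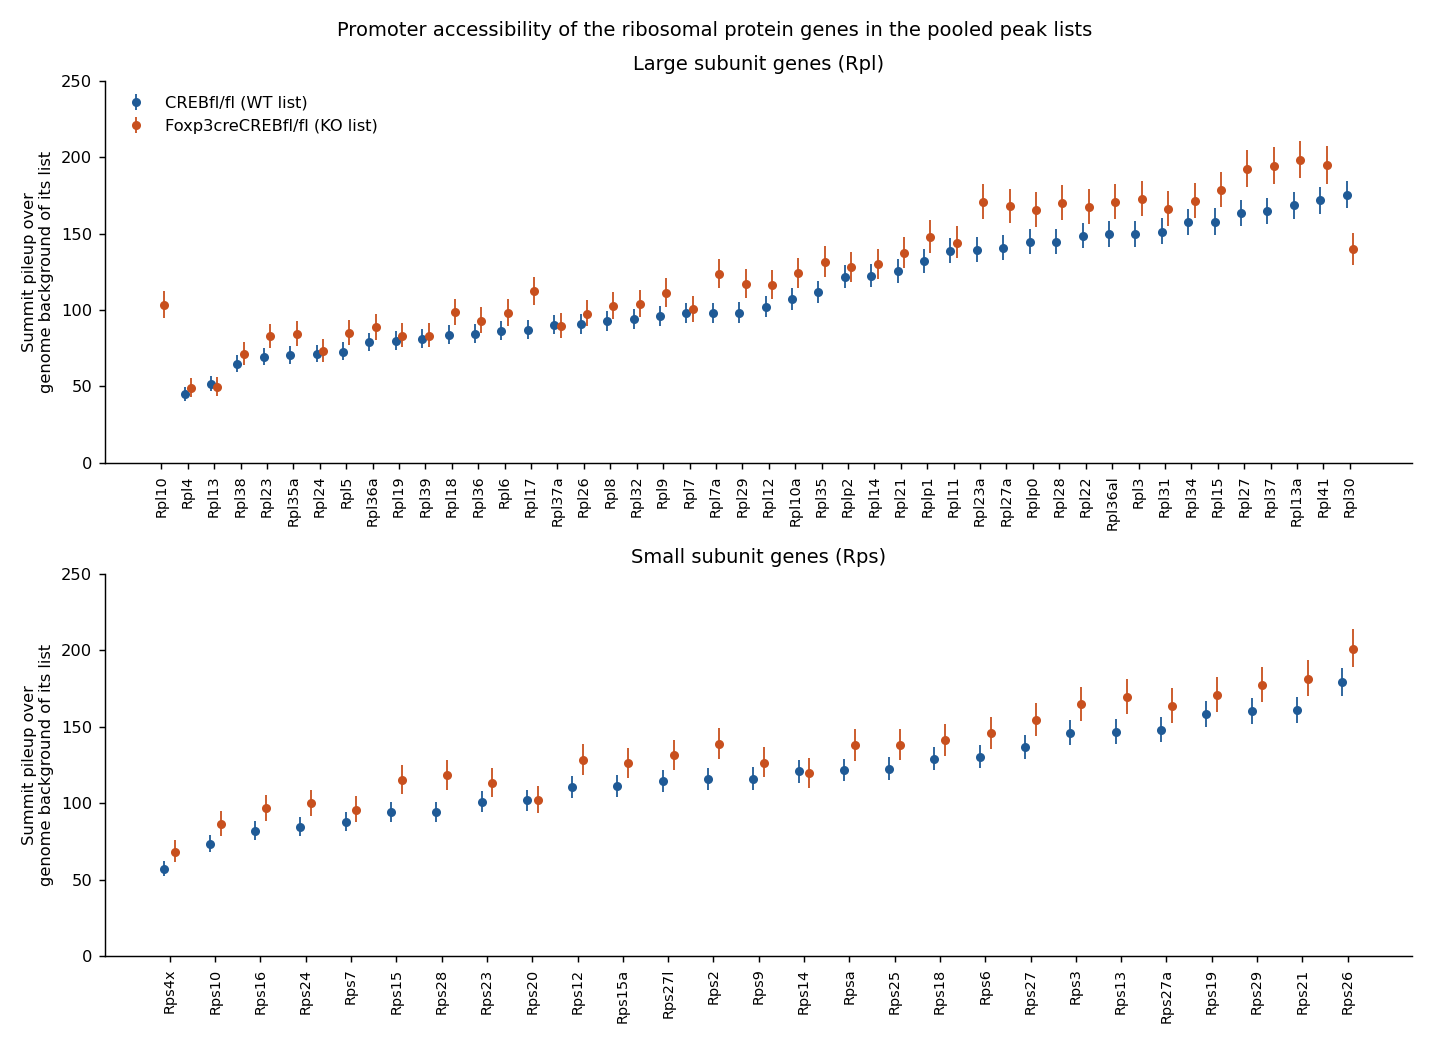
Promoter level of 73 open ribosomal protein genes, given as summit pileup over the genome background of its list (vertical axis, no unit), for the large subunit (top) and the small subunit (bottom), with genes ordered by their CREBfl/fl level and 95% Poisson counting intervals as bars. The order was nearly the same in both lists, from Rpl4 at 45.0 and 48.9 to Rps26 at 179 and 201. Rpl30, at 175 and 140, had the largest fall in Foxp3creCREBfl/fl Tregs on this scale, and Rpl13, Rpl37a and Rps14 were lower there by less. These levels are not centered on the shared regions, whose median log2 ratio was 0.15. Relative to that median, 27 of 77 genes were lower in the Foxp3creCREBfl/fl list. Rpl10 has only a Foxp3creCREBfl/fl value.

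For each gene, 1 promoter region was taken, the one nearest to its best supported coding start, and 77 of the 78 could be compared in level. The exception was Rpl10, a protein that joins the large subunit late in its assembly. Its CREBfl/fl pileup could not be recovered from the deposited values, and the authors' folds at its summit were 18.3 in the CREBfl/fl and 17.2 in the Foxp3creCREBfl/fl list. Among the 77, the median level was 115 in CREBfl/fl Tregs, with a middle range of 87.0 to 147 and a lowest value of 45.0. In Foxp3creCREBfl/fl Tregs the median was 128, the middle range 98.5 to 166 and the lowest value 48.9.

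Set against all 12727 promoters that were open in both lists, the family lay high but not at the top. The median over all of these promoters was 75.4 in the CREBfl/fl and 84.3 in the Foxp3creCREBfl/fl list. Percentiles were taken over all promoters with a level in the given list, also those without a peak in the other list. The median ribosomal protein gene stood at the 74.5th percentile in CREBfl/fl and at the 73.9th in Foxp3creCREBfl/fl Tregs. By these percentiles, 67 of 77 exceeded the median promoter in the CREBfl/fl list, 38 the 75th percentile and 12 the 90th. The medians of the mitochondrial ribosomal protein and proteasome genes were 84.7 and 90.5, lower than that of the ribosomal protein genes.

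Rps26, Rpl30, Rpl41 and Rpl13a were among the 5 genes with the highest CREBfl/fl levels. Rps26, one of the proteins mutated in Diamond-Blackfan anemia, had pileups of 1512 in CREBfl/fl and 1023 in Foxp3creCREBfl/fl Tregs and levels of 179 and 201. Rpl30 followed with pileups of 1482 and 712 and levels of 175 and 140. This was the one gene among these 4 with the lower level in Foxp3creCREBfl/fl Tregs. Rpl41, which encodes the smallest ribosomal protein, had levels of 172 and 195, and Rpl13a, also known for translation control in inflammation, 169 and 198.

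The lowest levels were found at Rpl4, Rpl13, Rps4x, Rpl38 and Rpl23. Rpl4, whose protein lines the exit tunnel of the large subunit, had pileups of 380 and 249 and levels of 45.0 and 48.9. Its counting intervals, 40.6 to 49.8 and 43.1 to 55.4, put it below all members but Rpl13 in CREBfl/fl Tregs. Rpl13 had pileups of 436 and 253 and levels of 51.6 and 49.7. Its intervals, 46.9 to 56.7 and 43.8 to 56.2, overlapped those of Rpl4. Rps4x, which lies on the X chromosome, had levels of 57.1 and 68.2. Rpl38, known for a role in the translation of Hox messages, had levels of 64.8 and 71.5, and Rpl23, a protein that can bind Mdm2, 69.5 and 82.7. Rpl4 lay at the 32.1th percentile of all promoters in CREBfl/fl Tregs, the lowest of the family.

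Levels were similar across subunits and gene structures. The 46 large subunit promoters had a median of 105 and the 31 small subunit promoters one of 116 in CREBfl/fl Tregs, with middle ranges of 84.9 to 148 and 94.1 to 146. The 28 genes with a snoRNA inside them had a median of 113, and the 49 without one a median of 115. The 16 promoter regions that also lay within 1 kb of the start of another protein-coding gene had a median of 100. Their middle range was 91.5 to 131. The other 61 had a median of 116 and a middle range of 87.0 to 147. Such pairs include Rpl18 with Sphk2, Rps18 with Vps52, Rpl7a with Med22, Rps27 with Rab13 and Rpl9 with Lias, where the signal cannot be assigned to either gene alone.

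**Figure D2:**
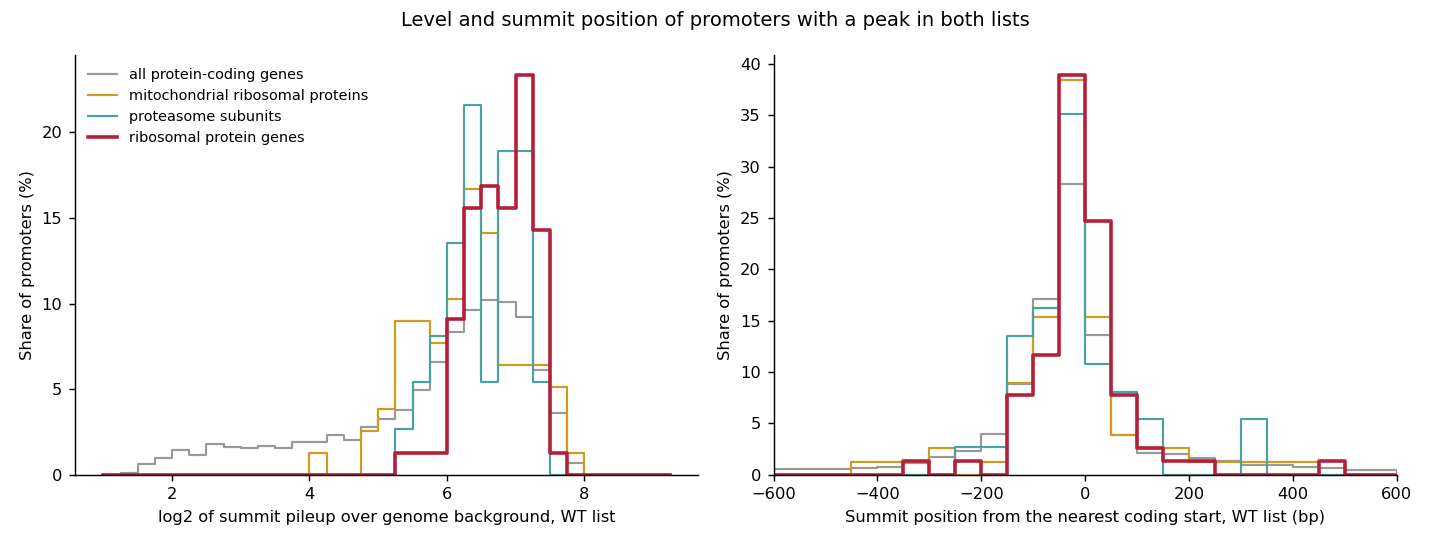
Share of promoters (vertical axes, percent) by log2 level in the CREBfl/fl list (left) and by the position of the CREBfl/fl summit from the nearest coding start in bp (right, negative values upstream), for the ribosomal protein genes and their comparison sets among promoters open in both lists. The lowest ribosomal protein gene had a level of 45.0, beside a first quartile of 34.8 over all promoters, and 93.5% of their summits lay within 150 bp of a start.

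Open chromatin was centered tightly on the nearest coding start. The median summit of the family lay at -17 bp in CREBfl/fl and at -22 bp in Foxp3creCREBfl/fl Tregs. The median distance without sign was 37 bp, against 65 bp over all promoters open in both lists. Within 150 bp of a coding start lay 72 of 77 summits (93.5%), against 73.9% over all of these promoters, 84.6% of mitochondrial ribosomal protein and 89.2% of proteasome genes. Summits lay upstream of the start in 47 genes (61.0%) and downstream in 30, and 68.8% of all these promoters had an upstream summit. The 5 genes with a more distant summit were Rpl13a (-204 bp), Rpl32 (-313 bp), Rpl35 (459 bp), Rps23 (179 bp) and Rps25 (232 bp), named after their values were seen. Each distance was taken from the GENCODE coding start of the gene nearest to the CREBfl/fl summit, in all sets. Short distances are thus partly built in where a gene has several starts. The start used for Rpl35, at 39005624 on chromosome 2, lay 21 bp outside its region, whereas its RefSeq start, at 39005131, lay inside it. The number of annotated starts per gene was not matched between the sets.

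The summits kept their place between the groups. In 65 of 77 genes, the summits of both lists were within 20 bp of each other, the median shift was 1 bp, and a shift of more than 100 bp was found in 1 gene, Rpl4, named after its value was seen. There the CREBfl/fl summit lay 25 bp and the Foxp3creCREBfl/fl summit 197 bp after the start. All 78 promoter regions were called as 1 peak in the CREBfl/fl list, whereas 14 (17.9%) were split into several summits or peaks in the Foxp3creCREBfl/fl list, Rpl14 and Rps19 into 3. Among all shared promoter regions, such a split was found in 12.8% for the Foxp3creCREBfl/fl and in 3.79% for the CREBfl/fl list.

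Beside the promoter regions, 37 further regions lay within 1 kb of a start of a ribosomal protein gene, 28 of them in both lists. They were weaker, with a median level of 19.7 in the CREBfl/fl list and a range of 11.2 to 174. The strongest belonged to starts shared with a neighbor. The region chr7:45714903-45715636 holds a distant start of Rpl18 together with that of Sphk2 and had levels of 174 and 197. The region chr10:128547358-128548111 covers the start of Zc3h10 beside Rpl41 and had levels of 154 and 153.

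**Figure D3:**
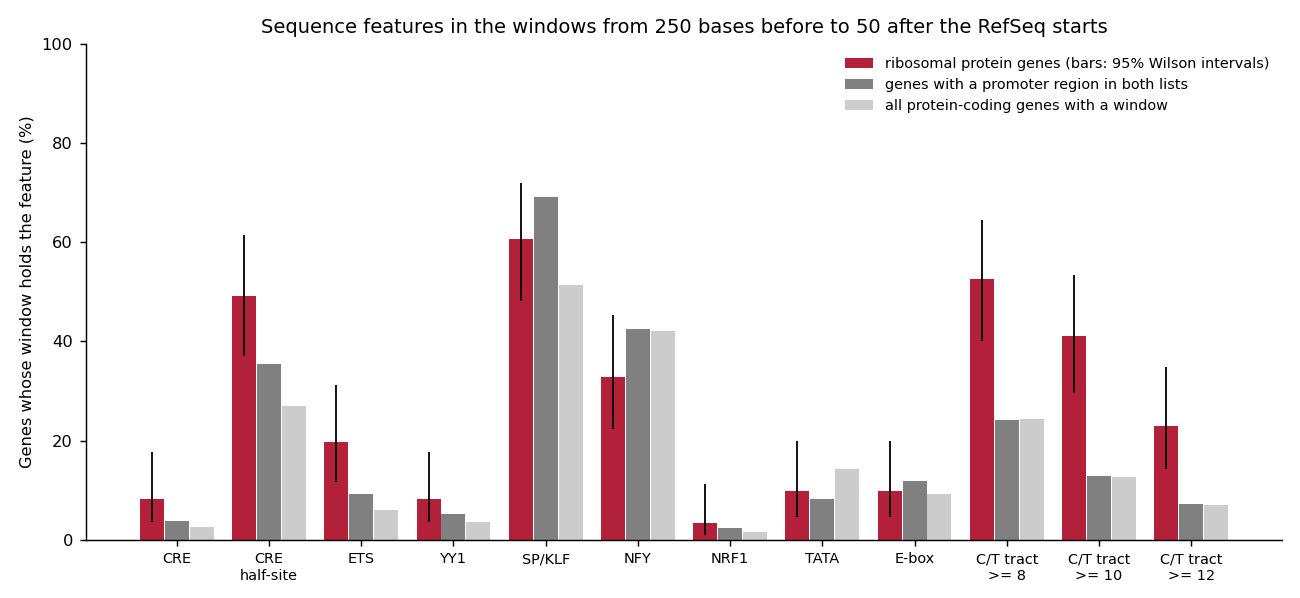
Share of genes (vertical axis, percent) whose RefSeq windows hold each sequence word or pyrimidine (C/T) tract, for the 61 ribosomal protein genes, for genes open in both lists and for all protein-coding genes. The pyrimidine tracts, the ETS word and the CRE half-site were more frequent among the ribosomal protein genes than in both other sets, with Wilson intervals above the shares of both, while SP/KLF and NFY words were not.

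The windows of the family shared sequence features that the choice by symbol had not used. A pyrimidine run of at least 8 bases that reached within 20 bases of the start was present in 32 of 61 genes (52.5%, 40.2 to 64.5), against 24.3% of all protein-coding genes. A run of at least 12 bases was present in 14 genes (23%, 14.2 to 34.9), against 7.04%. These 14 were Rpl4, Rpl7a, Rpl11, Rpl13a, Rpl14, Rpl15, Rpl27a, Rpl31, Rpl34, Rpl35, Rpl35a, Rps10, Rps24 and Rps25. The starts are those of RefSeq, and the starts used in these Tregs were not measured.

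Exact words of transcription factors were searched on both strands. The ETS word CCGGAAGT was present in 12 of 61 genes (19.7%, 11.6 to 31.3), against 5.97% of all and 9.2% of open genes. Among them were Rpl11, which binds Mdm2 when ribosome assembly is disturbed, Rpsa, which is also known as a laminin receptor, and Rps6. The YY1 word AAGATGGC was found in 5 genes (8.2%, 3.55 to 17.8), Rpl13a, Rpl22, Rpl35a, Rps15a and Rps27, against 3.64% of all and 5.23% of open genes. The SP/KLF word GGGCGG was found in 60.7% (48.1 to 71.9) against 51.3% of all and 69.1% of open genes. The NFY word CCAAT was found in 32.8% (22.3 to 45.3) against 42.2% and 42.6%.

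The TATA word TATAAA was present in 9.84% (4.59 to 19.8) against 14.3% of all and 8.27% of open genes, and the E-box CACGTG, a site of Myc, in 9.84% as well, against 9.22% and 11.8%. Over the whole accessible regions, however, the E-box was present in 35.1% of the family (24.0 to 48.1) against 22.7% of open genes, and the SP/KLF word in 84.2% (72.6 to 91.5) against 83.3%. The NRF1 word was present in 2 genes, Rpl10a and Rpl37a (3.28%, 0.904 to 11.2), against 1.53% of all and 2.36% of open genes. The GC content had a median of 57% in the family and in all genes and of 61% in open genes, while the ratio of observed to expected CpG was 0.87 against 0.588 in all and 0.753 in open genes.

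The intact CRE was present in 8.2% of the family (3.55 to 17.8), against 2.65% of all and 3.68% of open genes, so the interval of the first held the share of open genes. Its half-site TGACG, which is part of the CRE, was present in 30 of 61 genes (49.2%, 37.1 to 61.4), against 27% of all and 35.5% of open genes. The 30 genes held 49 half-sites, with each CRE counted once per strand, of which 47 lay inside the promoter region and 27 within 50 bp of the CREBfl/fl summit.

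**Figure D4:**
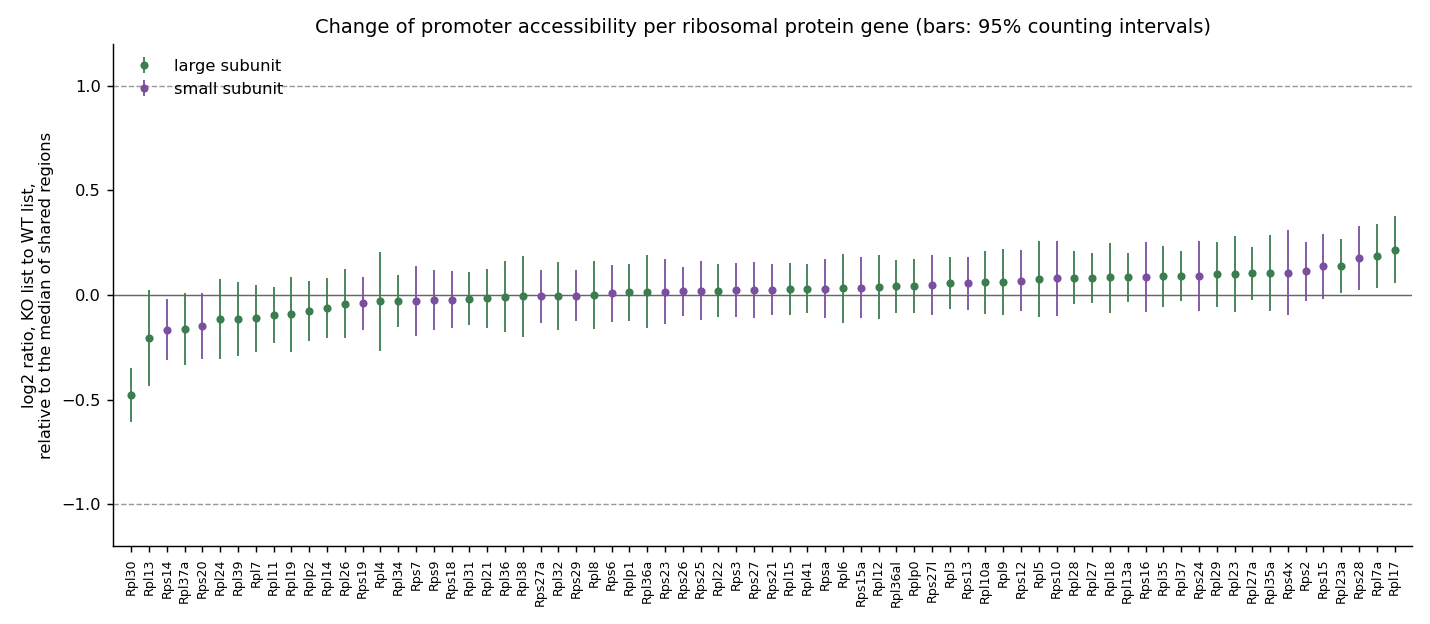
Relative log2 ratio of the promoter level in the Foxp3creCREBfl/fl to the CREBfl/fl list (vertical axis) for 72 ribosomal protein genes in ascending order, with 95% counting intervals as bars, the median of all shared regions at 0 and 2-fold marked by dashed lines. Apart from Rpl30 at -0.48, the genes lay between -0.20 and 0.22, and none reached the dashed lines.

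The levels of the family differed little between the lists. Ratios are given as log2 of the Foxp3creCREBfl/fl to the CREBfl/fl level, relative to the median of the 82006 shared regions, which was itself 0.15. The median ratio over the 77 promoters was 0.03, with a middle range of -0.02 to 0.08 and an SD of 0.10, beside a median counting SD of 0.07. Over all 12727 promoters open in both lists, the median was 0.02, the middle range -0.06 to 0.11 and the SD 0.20. Of the 77 genes, 58 lay within 0.1 of 0, and 76 within 0.25. The levels of both lists had a Pearson correlation of 0.977 on the log2 scale across these 77 genes, which share the libraries, and of 0.984 without Rpl30.

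The call rule asked for a ratio at least 2-fold away from that of the median region, and for 5 counting SDs. By this rule 0 of the 105 shared regions of the family were lower and 0 were higher in Foxp3creCREBfl/fl Tregs, against 0.118% and 0.0829% of all shared regions and 0.128% and 0.0442% of those at protein-coding starts. By a rule of an interval that does not hold 0, 3 were lower and 6 were higher, against 7.88% and 5.47% of all shared regions and 6.76% and 6.17% of those at protein-coding starts. Among the 77 promoters alone, 2 were lower and 5 were higher by this rule. The background was 6.29% and 7.38% over 1 promoter per protein-coding gene, and 7.16% and 6.72% over promoters at the level of the middle of the family. The large subunit had a median ratio of 0.03, as had the small subunit. The genes with snoRNAs had a median of 0.05 and those without one of 0.02.

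Rpl17, Rpl7a, Rps28 and Rpl23a were among the 5 genes with the highest ratios. Rpl17 reached 735 tags at the summit in CREBfl/fl and 571 in Foxp3creCREBfl/fl Tregs, at a ratio of 0.22 (0.06 to 0.38). The ratio was 0.19 for Rpl7a (827 and 629), 0.18 for Rps28 (795 and 601) and 0.14 for Rpl23a (1179 and 868), whose protein lies at the exit of the tunnel. All 4 intervals lay above 0, and none of these ratios reached 0.25 on this scale.

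The lowest ratios were those of Rpl30, Rpl13, Rps14, Rpl37a and Rps20. Rpl13 (436 and 253) had a ratio of -0.20, but its interval of -0.43 to 0.02 held 0. Rps14, known for its loss in a form of myelodysplastic anemia, reached 1020 and 608, at a ratio of -0.17 (-0.31 to -0.02). Rpl37a (763 and 456) and Rps20 (860 and 519) had ratios of -0.16 and -0.15, with intervals that held 0. Among the further regions, the one at a noncoding start of Rpl11, chr4:136028007-136029055, reached 201 and 186, at a ratio of 0.47 (0.17 to 0.76), and the one at Zc3h10 beside Rpl41 a ratio of -0.16 (-0.29 to -0.03).

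The genes with an intact CRE had ratios on both sides of 0. The ratio was -0.02 in Rps9 (-0.17 to 0.12), 0.08 in Rpl18 (-0.08 to 0.25), 0.10 in Rpl27a (-0.03 to 0.23), -0.20 in Rpl13 and -0.04 in Rpl26 (-0.21 to 0.12), a protein known to promote the translation of p53. All 5 intervals held 0. The lowest bound was the -0.43 of Rpl13 and the highest the 0.25 of Rpl18. Their median was -0.02, and that of the 52 genes with a window but without the palindrome 0.03. Genes with a half-site had a median of 0.03 and those without one of 0.04, and genes with a pyrimidine run of at least 8 bases one of 0.02 against 0.04.

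**Figure D5:**
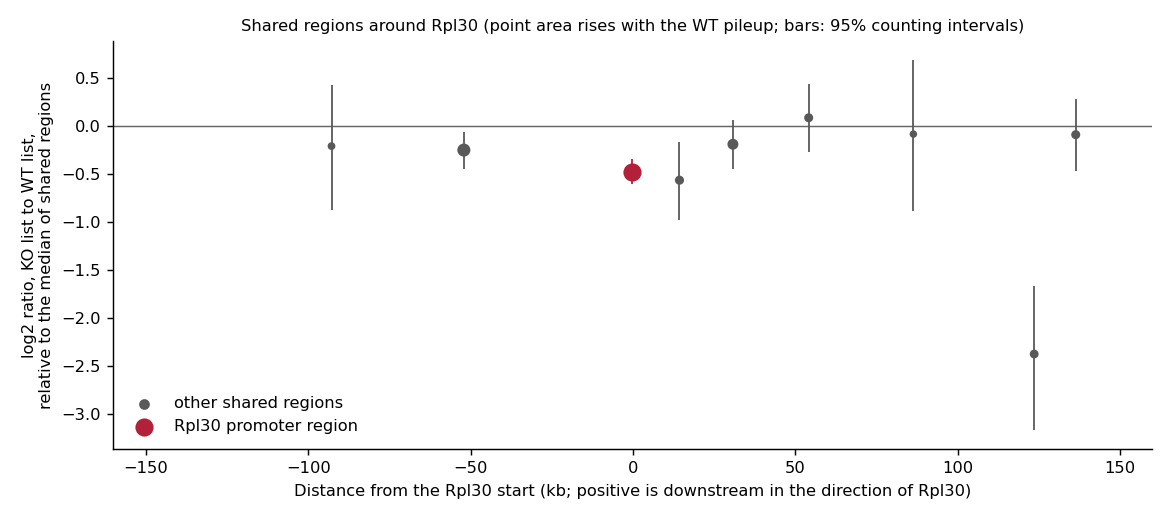
Relative log2 ratio (vertical axis) of the regions shared by both lists within 150 kb of the Rpl30 start, against the distance in kb in the direction of transcription, with 95% counting intervals as bars and point areas that rise with the CREBfl/fl pileup. Of the 8 neighbors, 7 lay below 0, the median of all shared regions, and the one with the lowest ratio, at -2.38, was 124 kb downstream.

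Rpl30 had the lowest ratio of summit levels in the family. It encodes a protein of the large subunit, hosts 1 snoRNA and has its promoter region at chr15:34442910-34443887 on the minus strand. The pileup was 1482 in CREBfl/fl and 712 in Foxp3creCREBfl/fl Tregs, the level was 175 and 140, and the relative ratio was -0.48 (-0.61 to -0.35), which is 28.1% lower. This value depends on the background used. The authors' folds over local background were 24.8 and 24.3, with local backgrounds of 58.9 and 28.4, whose ratio of 2.08 compares with a median of 1.55 over the family's promoters. On the ratio of these folds, centered in the same way, Rpl30 was at -0.08, and 11 of the 77 genes were lower. The low ratio of Rpl30 was thus seen for the summit pileup over the genome background, and not for the fold over local background. The local background comes from the same list around the summit and may hold tags of the peak itself. The fold therefore cannot show whether the summit level fell, and this was not tested. Its rank among promoters was the 94.9th percentile in the CREBfl/fl and the 79.4th in the Foxp3creCREBfl/fl list. Besides Rpl30, the only promoter of the 77 with an interval below 0 was Rps14, and the next lowest ratio was -0.20.

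By summit level over the genome background, few strong promoters had such a ratio. Of 2817 promoter regions at or above the median level of the family, 6 (0.213%) had a ratio at or below that of Rpl30, including its own. The other 5, named after their values were seen, were Plekha4, Klf9, Smim27, Uap1 and Slc37a4, at -0.49 to -0.56. The shared regions around it were also on the low side. Within 150 kb, 8 other shared regions had a median ratio of -0.20. Of these, 7 lay below 0, which is the median of all shared regions by the centering. An interval below 0 was found in 3, against 7.88% of all shared regions, and 1 was called lower by the 2-fold rule, against 0.118%. That region went from 140 tags in the CREBfl/fl to 18 in the Foxp3creCREBfl/fl list, at a ratio of -2.38 (-3.17 to -1.67). Regions with a peak in only one list have no ratio and are not among the 8. Within 150 kb, such regions had pileups of 24, 16 and 46 in the Foxp3creCREBfl/fl list, the last 10.2 kb from the Rpl30 start. In the CREBfl/fl list they had pileups of 108, 22 and 42.

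Rpl30 lies in a stretch of chromosome 15, from 25 to 40 Mb, with more called regions in both directions than the 0.118% and 0.0829% of the whole genome. The limits of this stretch were taken with earlier results of these data known. Its higher shares therefore describe the stretch and are not a test. There, 13 of 413 shared regions were lower (3.15%) and 8 higher (1.94%), while their median ratio was -0.02. The other 3 ribosomal protein genes of chromosome 15 lie outside this stretch and had ratios of 0.09 (Rpl37), 0.00 (Rpl8) and 0.06 (Rpl3). The part of the stretch in the value of Rpl30 was not tested.

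Regions found in only one list were narrow, and their number depended on the settings. In the CREBfl/fl list, 9 of 115 regions of the family (7.83%) had no counterpart in the other list, against 16.8% of all regions and 11.3% of those at start sites. In the Foxp3creCREBfl/fl list it was 0 of 106, against 7.07% and 4.56%. With a −log10 q of at least 10 the first count was 2, and with a reciprocal overlap required of shared peaks the second was 16. The 9 regions were narrow, 84 to 159 bp wide, and flanked the promoter regions of Rps12, Rpl15, Rpl37 (2 regions), Rpl10a, Rps27, Rpl18, Rpsa and Rpl10. Their pileups of 97 to 131 stood over local backgrounds of 39.5 to 68.9, so the authors' folds were only 1.86 to 2.72. A missing call in the other list is not a measured level of 0.

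The other genes of ribosome production were measured in the same way. The 6 ribosomal proteins with other symbols (among them Rps3a1, Fau, Rack1, Rpl7l1 and Rpl22l1) were all open, with a median level of 121 and a median ratio of 0.02. Their ratios ran from -0.13 at Rack1, a signaling scaffold on the small subunit, to 0.12 at Rpl22l1, a paralog of Rpl22. All 15 further genes known for TOP messages, most of them translation factors, were open, with a median level of 120 and a median ratio of 0.07. Of these, 14 had a ratio above 0, against 57.7% of all promoters. The ratios ran from -0.02 at the histone chaperone Nap1l1 to 0.29 (0.08 to 0.50) at Eef2, the elongation factor that moves the ribosome along the message. Intervals above 0 were found in 2 of the 15, against 7.38% of all promoters.

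All 16 ribosome biogenesis genes were open, with a median level of 98.2 and a median ratio of -0.03. Of these, 11 lay below 0, against 42.3% of all promoters. The ratios ran from -0.27 (-0.44 to -0.11) at Dkc1, the pseudouridine synthase of snoRNA particles, to 0.18 at Polr1a, the large subunit of RNA polymerase I, whose interval held 0. Intervals below 0 were found at Dkc1 and at Nolc1 (-0.16, -0.29 to -0.03), a nucleolar chaperone of the same particles, while 6.29% of all promoters had one. The 10 genes of mTOR and TOP control had a median of 0.03. Their ratios ran from -0.11 at Mtor itself, whose interval held 0, to 0.25 (-0.06 to 0.56) at Eif4ebp1, an inhibitor of the cap-binding protein. An interval above 0 was found in 1 of the 10, while 7.38% of all promoters had one. None of the promoters of these 4 lists passed the 2-fold rule in either direction.

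The sets most like the family had medians of 0.04 for 78 mitochondrial ribosomal protein and 0.04 for 37 proteasome promoters. Their extremes were Mrpl21 at 0.36 (0.15 to 0.56) and Psmb8, a subunit of the interferon-induced immunoproteasome, at -0.79 (-1.08 to -0.51). Promoters at the level of the middle of the family, 3841 in number, had a median of 0.01 and an SD of 0.11, beside 0.10 in the family and 0.08 in the family without Rpl30. Differences between these sets have no replicate, and none is called particular to the ribosomal protein genes.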

How the data were processed

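ATAC-seq of splenic Tregs was analyzed from 1 deposited peak list per group. By the methods, the authors used Trim Galore for trimming and Bowtie2 for alignment, dropped duplicates and low-quality alignments with SAMtools, and called peaks with MACS2. The sources used here give neither tool versions nor how the 3 libraries of a group were joined, and the methods speak of duplicate samples. The sources name mm9, but 78 members had a peak within 1 kb of a GRCm38 start in either list, against 26 after a shift of 100 kb, so GRCm38 was used. The methods name a fixed background, whereas the deposited peaks carry local ones.

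The deposited lists hold the fold (ratio of summit pileup to background), the −log10 of the p-value and a score, which is the −log10 q times 10 cut to a whole number, all as the authors' peak caller wrote them. Whole-number pileups were recovered from the fold and the −log10 p to within 0.002 in 99.94% of CREBfl/fl and 99.97% of Foxp3creCREBfl/fl peaks. Peaks that overlapped by at least 1 bp were joined, and the highest pileup was used. Levels were divided by the genome background of the list, which sets the precision together with the pileup. Log2 ratios were centered on all shared regions and given with exact conditional binomial 95% intervals, level intervals are Poisson, and shares have Wilson intervals. A call needed 2-fold and 5 counting SDs. Columns of per-sample values left out numbered 0.

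Genes named are those without a peak, those called, those in regions of one list, the 5 highest and lowest in level and in ratio, those with a CRE, the paralogs, and the extremes of each pathway list. The members and lists were chosen with earlier results of these data known. Alternatives varied the distance, starts, peak threshold, level, centering, overlap, call rule and sequence searched. RefSeq windows (GRCm38.p6) were not used here for 20 genes, among them Rpl32, Rps29, Rplp1, Rpl29, Rpl17, Rpl21, Rpl23a, Rpl30, Rps14, Rpl36, Rpl7, Rps27a, Rpl3, Rps20 and Rpl8. Some genes are counted in the totals but not reported here by name or drawn in the plots of single genes. Scripts were tested on simulated data and ran in Python 3.11.15 with numpy 2.4.6, pandas 2.3.3, scipy 1.17.1 and matplotlib 3.10.9.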

Additional observations from a re-analysis of the deposited data

How the results depend on the processing

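With 1 pooled list per group, no replicate could be left out, and differences between libraries are unknown. No paired analysis was possible because the lists carry no replicate columns. The count of 78 open genes was the same within 500 or 250 bp, at coding starts and at −log10 q of at least 10. By the authors' fold, which divides by local background, the median level was 20.5 in CREBfl/fl and 21.5 in Foxp3creCREBfl/fl Tregs. Without the shift to the median of shared regions, the median ratio was 0.18. The other centerings, the authors' folds, the overlap, peak sums, the threshold and leaving out shared promoters or chromosomes 1 and 15 gave 0.01 to 0.04, and leaving out Rpl30, chosen after seeing the data, gave 0.03. The ratio of Rpl30 itself was -0.08 by the authors' folds, in place of -0.48. By intervals that do not hold 0, 6 regions were higher and 3 lower, in place of 0 and 0, while 1.5-fold with 3 counting SDs gave 0 in both directions. At −log10 q of at least 10, CREBfl/fl-only regions numbered 2, and with a stricter, reciprocal overlap, Foxp3creCREBfl/fl-only regions numbered 16. In whole accessible regions, shares were 77.2% for the CRE half-site (58% of open genes), 84.2% for SP/KLF (83.3%), 49.1% for NFY (59.7%) and 35.1% for the E-box (22.7%), with more bases searched than in the windows. In whole regions, the family's interval for the E-box (24.0 to 48.1) lay above the share of open genes. Its intervals for SP/KLF in both searches, and for the E-box in the windows, held the share of open genes. The cause of the other differences was not tested.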
